A study of Mus musculus with 9 samples.

Results

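The genes described here are 38 genes of the endoplasmic reticulum (ER) that fold, modify, translocate or degrade secretory and membrane proteins, or sense their misfolding. They were chosen by gene symbol in the arrays' annotation, with the brightest probe set standing for each gene. Of the 38, 37 had a probe set of their own and stood among the 12828 genes tested. The exception, Sec61g, was read only by a probe set shared by 3 genes and was not used.

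The RNA came from pre-B cells of the mouse, precursors of B cells that carry a pre-B receptor, and every group was IRF4,8 -/-, that is, null for the transcription factors IRF4 and IRF8. One group grew in high IL-7 (5 ng), 1 in low IL-7 (0.25 ng) and 1 in high IL-7 (5 ng) with IRF4 put back, with 3 arrays each. IL-7 is the stromal cytokine that keeps pre-B cells dividing, and the labels disagree on the volume to which its amounts refer. How IRF4 was put back, whether the other cells carried a control vector, and how long the cultures lasted are not given in the sources used here. Separate cultures for the arrays within a group are not stated there, so the p-values measure the spread between arrays, which may be technical. The medium, RNA extraction and labelling were described alike for all groups.

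Proteins that enter the secretory pathway pass the Sec61 channel, lose their signal peptide, receive sugars and are folded by chaperones, lectins and disulphide isomerases in the ER lumen. When unfolded protein accumulates, the sensors IRE1 (gene Ern1), ATF6 and PERK (gene Eif2ak3) start the unfolded protein response (UPR), in which ATF6, spliced XBP1 and ATF4 raise chaperone and degradation genes. XBP1 is best known in the B lineage for building the secretory apparatus of plasma cells. Chaperone promoters carry the ER stress element, the bases CCAAT and CCACG separated by 9 others, which NF-Y and ATF6 bind.

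Promoter sequences are shown because the ER stress element was common among these genes and most of its holders fell in low IL-7. RefSeq windows of the build GRCm38.p6, from 250 bases before to 50 after the start site, were found for 31 of the 38 genes, and both strands were searched. The element was present in 8 of the 31 genes (25.8%) and in 37 of all 27025 genes with a window (0.137%). Chaperone genes are known carriers of it, so a high share follows from the choice of the list. Of the 22 tested genes with a window and no match, 11 were lower in low IL-7 too. Below, each run reads 5′ to 3′ on the gene's strand, starts 10 bases before the first match and ends at the base before the start site. Capitals mark the CCAAT piece and the CCACG piece, or their reverse complements where the element lies on the other strand. The first 6 genes were called lower in low IL-7 than in high IL-7, and Dnajc3 and Syvn1 were not called.
Hspa5 (chr2:34772015-34772089, plus strand): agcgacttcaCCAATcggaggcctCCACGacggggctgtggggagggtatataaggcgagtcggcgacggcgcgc
Hsp90b1 (chr10:86705445-86705666, minus strand): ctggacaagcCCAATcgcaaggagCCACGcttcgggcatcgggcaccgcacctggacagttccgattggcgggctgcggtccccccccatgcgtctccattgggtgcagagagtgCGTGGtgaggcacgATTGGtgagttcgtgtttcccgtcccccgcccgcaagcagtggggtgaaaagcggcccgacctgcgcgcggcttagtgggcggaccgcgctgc
Creld2 (chr15:88819510-88819645, plus strand): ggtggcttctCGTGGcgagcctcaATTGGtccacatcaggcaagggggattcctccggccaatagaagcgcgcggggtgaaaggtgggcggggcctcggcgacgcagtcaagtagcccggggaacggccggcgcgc
Pdia6 (chr12:17266481-17266588, plus strand): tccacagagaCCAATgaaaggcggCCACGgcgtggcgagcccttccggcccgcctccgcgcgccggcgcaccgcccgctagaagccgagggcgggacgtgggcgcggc
Calr (chr8:84846932-84847103, minus strand): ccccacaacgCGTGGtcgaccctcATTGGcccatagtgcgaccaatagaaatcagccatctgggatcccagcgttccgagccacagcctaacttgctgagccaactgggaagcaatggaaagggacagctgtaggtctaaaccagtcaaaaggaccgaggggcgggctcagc
Canx (chr11:50325674-50325828, minus strand): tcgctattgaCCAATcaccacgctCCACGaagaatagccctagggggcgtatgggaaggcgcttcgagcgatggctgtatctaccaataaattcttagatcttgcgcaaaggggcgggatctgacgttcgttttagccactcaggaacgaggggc
Dnajc3 (chr14:118937817-118937931, plus strand): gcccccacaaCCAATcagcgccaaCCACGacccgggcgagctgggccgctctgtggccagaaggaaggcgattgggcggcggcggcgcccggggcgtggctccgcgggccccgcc
Syvn1 (chr19:6046522-6046575, plus strand): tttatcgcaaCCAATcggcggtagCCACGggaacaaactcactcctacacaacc

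Hsp90b1 held the element 2 times, once on each strand, and the other 7 genes held it once. The matches began between 212 and 44 bases before the start site. The compact element II, ATTGG and CCACG separated by 1 base, was found in Herpud1 and Dnajb11 (6.45% of the 31 genes against 0.0444% of all genes). In Dnajb11 it lay after the start site. The XBP1-type element TGACGTGG was found in Txndc5 alone of the 31 (3.23%, against 0.714% of all genes). These runs are printed for Herpud1, which was called higher in low IL-7, and for Txndc5, which had one of the largest falls.
Herpud1 (chr8:94386367-94386428, plus strand): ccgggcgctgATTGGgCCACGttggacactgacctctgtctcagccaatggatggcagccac
Txndc5 (chr13:38527915-38528062, minus strand): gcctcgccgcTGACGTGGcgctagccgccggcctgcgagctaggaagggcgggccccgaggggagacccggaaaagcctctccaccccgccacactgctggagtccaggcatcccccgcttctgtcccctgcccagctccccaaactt

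The shorter pieces were widespread, with CCACG in 83.9% and CCAAT in 74.2% of the 31 genes against 35.5% and 41.1% of all genes. Among the 10362 tested genes with a window, 50.4% held CCACG and 42.4% held CCAAT. Of these tested genes 0.154% held the ER stress element, 0.0869% element II and 1.09% TGACGTGG. CCACG and CCAAT matches include those inside the longer elements. A match is a run of letters, not a measured binding site.

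**Figure D1:**
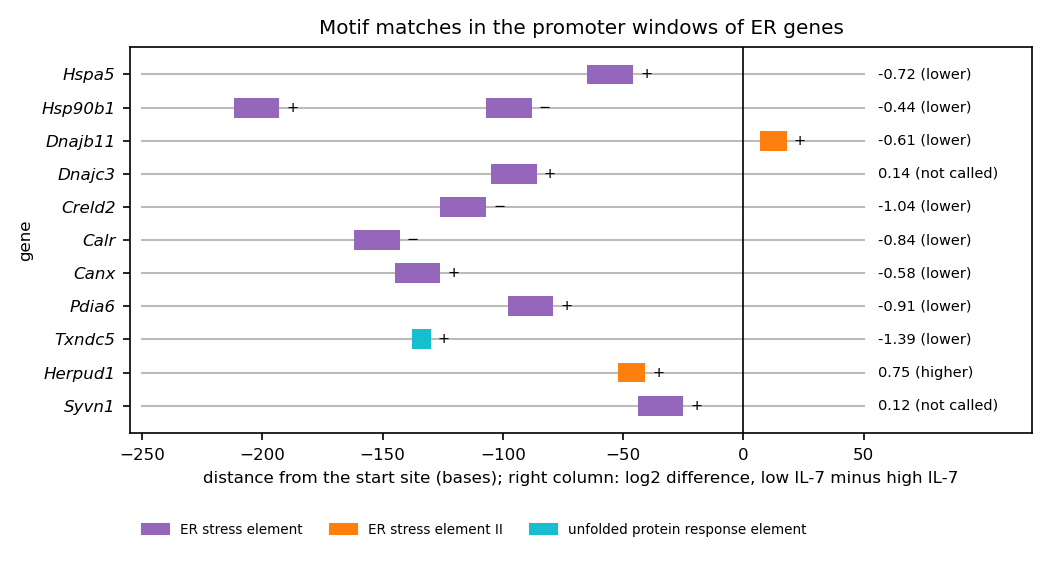
Positions of the 3 long motifs in the promoter windows of the 11 genes that hold one, by distance from the start site in bases, with the strand beside each box. The right column gives the log2 difference of low IL-7 minus high IL-7: the genes with an ER stress element lie between -1.04 (Creld2) and 0.14 (Dnajc3).

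Across the series, array medians lay between 139.7 and 151.3 intensity units and replicates correlated with r from 0.976 to 0.995. Of the 2 Irf4 probe sets, 1 was higher in the arrays with IRF4 put back (1088 to 2543) than in high IL-7 (202 to 381). The brighter one was lower there (3702 to 4256 against 4719 to 5791) and was highest in low IL-7 (7161 to 7926). Both Irf8 probe sets gave signal in every group. Of these, 1 was higher in low than in high IL-7 (3581 to 4086.5 against 2715 to 3153) and the other overlapped (3137 to 4426 against 2250 to 3405). The dimmer Irf4 probe set overlapped too. These probe sets thus check the labels only in part. The sources used here do not name the exons that the null alleles lack. Of 12 pre-B markers, 11 were measured, all above the filter, and the surrogate light chain gene Vpreb1 lay between 9508 and 13993 on the 9 arrays. The pre-B list moved with the groups: 8 of the 11 were called higher in low IL-7 than in high IL-7 and the other 3 were not called, 3 were higher with IRF4 in high IL-7, and 9 were lower with IRF4 than in low IL-7. Their summed intensity ranged from 43258 to 52720 in high IL-7, from 76558 to 80419 in low IL-7 and from 49164 to 52226 with IRF4. The recombinase gene Rag1, for example, read 148.4, 259 and 124.3 in high IL-7, 3916, 5531 and 4768 in low IL-7 and 423, 638.5 and 406 with IRF4. The part of this shift in the results was not tested. Signal from stromal markers (16 of 19 above the filter) differed between arrays and is set beside the results at the end. In bulk RNA, fewer cells of a type and less RNA per cell cannot be told apart.

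The first comparison asks what lowering IL-7 did in cells labelled null for IRF4 and IRF8. Most folding genes fell in low IL-7. A gene was called when its Benjamini-Hochberg adjusted p in limma, over all 12828 genes, was under 0.05. Among the 37 genes, 22 were lower in low IL-7 (59.5%, against 19.6% of all genes tested) and 6 were higher (16.2%, against 17.8%). The other 9 were not called. The calls in either direction covered 37.4% of all genes. The median log2 difference of the 37 genes was -0.42, beside 0.02 over all genes. Of the calls, 4 falls and 1 rise were 2-fold or more, beside 527 falls and 353 rises among all 12828 genes. The high and low IL-7 arrays did not overlap for 30 of the 37 genes (81.1%), against 50.3% of all genes tested.

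The 17 folding genes (luminal chaperones, lectin chaperones and isomerases) had a median log2 difference of -0.83, with 14 lower and 1 higher. The other 20 genes had a median of -0.15, with 8 lower and 5 higher. The difference between these groups of genes was not tested.

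**Figure D2:**
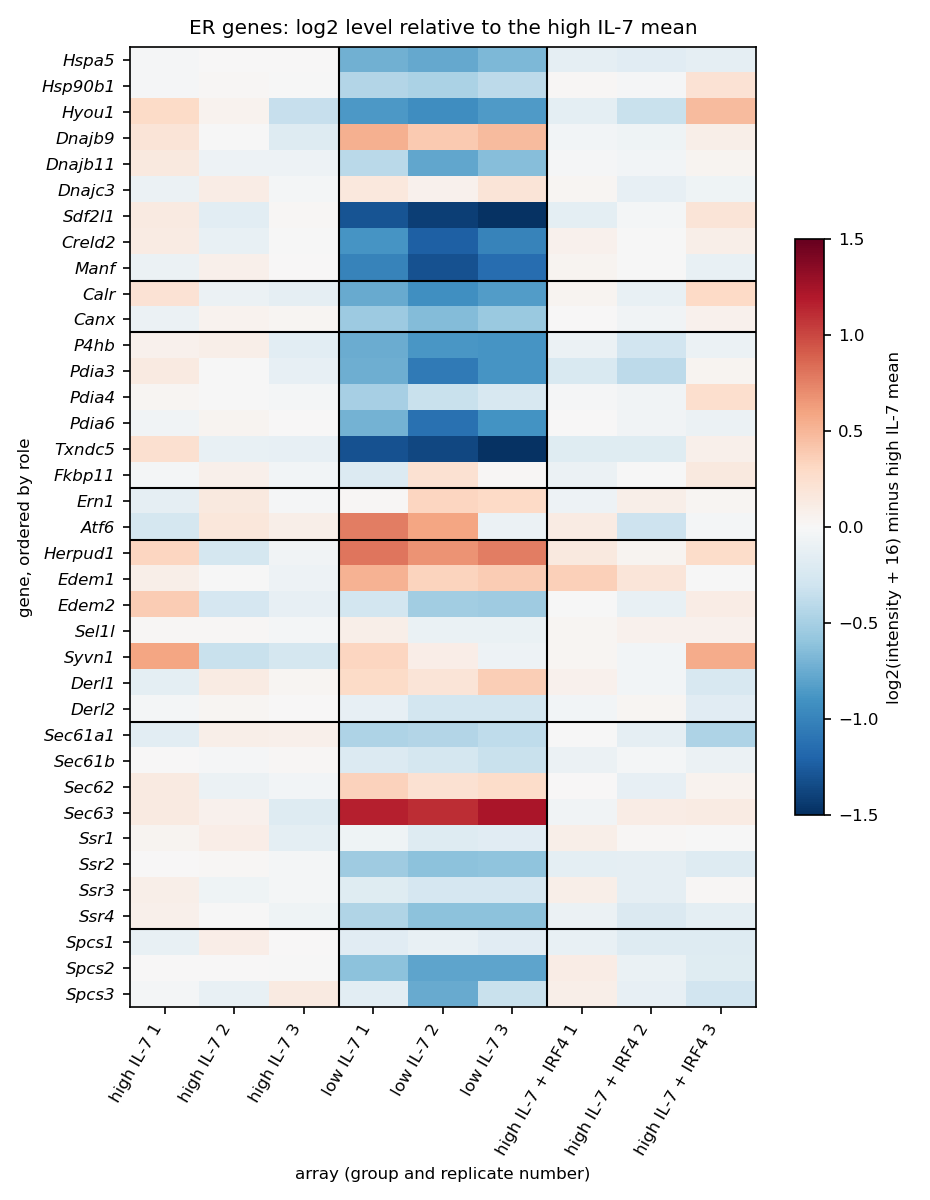
Level of each of the 37 genes on each of the 9 arrays, as log2(intensity + 16) minus the mean of the 3 high IL-7 arrays, with rows ordered by role and lines between roles. The low IL-7 columns are blue for 14 of the 17 folding genes at the top, and Sec63, Herpud1 and Dnajb9 are red there.

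The luminal chaperones and their cofactors numbered 9, of which 7 fell, 1 rose and 1 was not called, with a median of -0.72. Hspa5 encodes BiP, the HSP70 of the ER lumen and the protein that holds the UPR sensors inactive. Its intensities were 9558, 9767 and 9779 in high IL-7, 5880.5, 5707 and 6058 in low IL-7 and 8866, 8653 and 8863 with IRF4 put back. All low IL-7 arrays lay far below the rest, and the replicates of each group differed little. The fall in low IL-7 was 1.65-fold (log2 difference -0.72, SE 0.04, limma adjusted p = 8.44e-07).

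Sdf2l1, a BiP cofactor that binds ER J-domain proteins, had the largest fall among the 37 genes. It read 595, 479.5 and 547 in high IL-7, 209, 192 and 183 in low IL-7 and 484, 529.6 and 621 with IRF4. The low IL-7 arrays were separate from the other 6, and the fall was 2.64-fold (log2 difference -1.40, SE 0.11, limma adjusted p = 7.01e-06). Manf, a small secreted protein induced by ER stress, read 3123, 3478 and 3329 in high IL-7, 1638, 1328 and 1486 in low IL-7 and 3408, 3305 and 3064 with IRF4. This was a fall of 2.22-fold (log2 difference -1.15, SE 0.089, limma adjusted p = 5.21e-06), again with no overlap between the low and high IL-7 arrays.

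Creld2, another ER stress-induced luminal protein, read 886, 749.9 and 805 in high IL-7, 434, 337 and 398 in low IL-7 and 849, 809.8 and 863 with IRF4. It fell 2.05-fold (log2 difference -1.04, SE 0.11, limma adjusted p = 3.24e-05). Hyou1, the large HSP70-like nucleotide exchange factor of BiP, varied widely among replicates, with 1837, 1560 and 1181 in high IL-7, 819, 778 and 826 in low IL-7 and 1349.7, 1189 and 2099 with IRF4. Even so its low IL-7 arrays did not overlap the others, and the log2 difference was -0.88 (SE 0.20, limma adjusted p = 0.0062). A dimmer probe set of Hyou1 above the filter was not called (0.07, limma adjusted p = 0.634). Smaller falls were measured for the J-domain protein Dnajb11 (log2 difference -0.61) and for Hsp90b1, which encodes the HSP90 of the ER (-0.44).

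The J-domain genes of this group did not move together. Dnajb9, whose product promotes BiP binding to IRE1, rose from 749, 653 and 569.9 in high IL-7 to 951, 862 and 916 in low IL-7 (log2 difference 0.47, limma adjusted p = 0.00608). The arrays did not overlap, but the call was lost with the mean level of stromal markers as a covariate over all 9 arrays (log2 difference 0.37, limma adjusted p = 0.0541). It was also lost without the 3 arrays of highest stromal signal (0.27, limma adjusted p = 0.249), a fit that leaves 1 array of high IL-7, assumed to vary like those of the other groups. Dnajc3, the ER J-domain protein known as p58IPK, was not called (log2 difference 0.14, limma adjusted p = 0.223), although a dimmer probe set of it was called lower (-0.36).

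**Figure D3:**
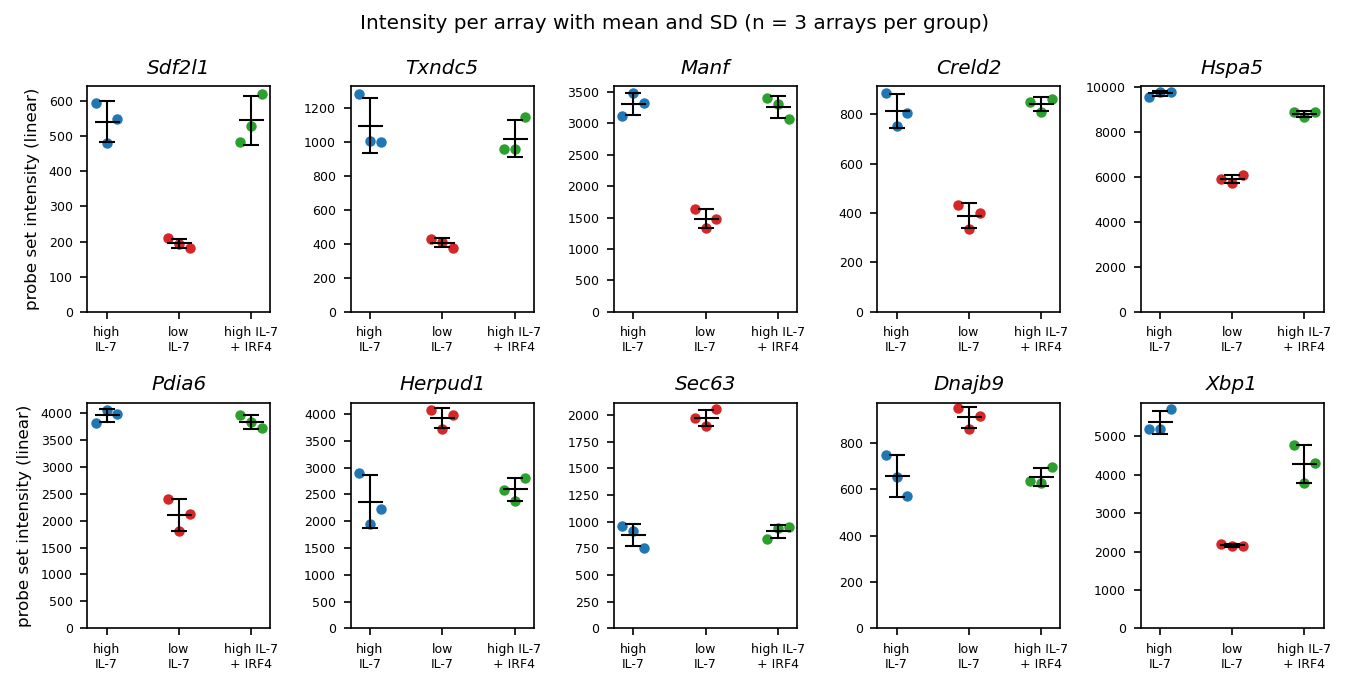
Linear probe set intensity on each array for 9 of the genes and Xbp1, with bars at the group mean and SD (n = 3 arrays) and every axis starting at 0. Sdf2l1, Txndc5, Manf, Creld2, Hspa5, Pdia6 and Xbp1 are lowest in low IL-7, and Herpud1, Sec63 and Dnajb9 are highest there.

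Both lectin chaperones, which retain glycoproteins bearing trimmed sugars, fell. Calr, encoding soluble calreticulin, read 8215, 6649 and 6408 in high IL-7, 4152, 3703 and 3948 in low IL-7 and 7244, 6521 and 8707 with IRF4. Its log2 difference in low IL-7 was -0.84 (SE 0.11, limma adjusted p = 0.000223). Canx, encoding the membrane-bound calnexin, was lower by 0.58 on the log2 scale, and all 3 of its probe sets were called lower.

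Of the 6 isomerases, 5 fell and 0 rose in limma, the same counts as at an unadjusted p under 0.05, with a median of -0.86. Txndc5, a thioredoxin-domain isomerase, read 1282, 1005 and 996 in high IL-7, 429.9, 411 and 378 in low IL-7 and 954, 955 and 1146 with IRF4. Its fall was nearly that of Sdf2l1, at 2.62-fold (log2 difference -1.39, SE 0.12, limma adjusted p = 1.03e-05). Pdia6, an isomerase that also acts on the UPR sensors, read 3817, 4062 and 3985 in high IL-7, 2403, 1806 and 2115 in low IL-7 and 3964, 3824 and 3715 with IRF4. The log2 difference was -0.91 (SE 0.094, limma adjusted p = 3.24e-05), and no low IL-7 array reached the level of another group.

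Pdia3, the isomerase that works with calnexin and calreticulin, read 4173, 3802 and 3486 in high IL-7, 2289, 1817 and 2059 in low IL-7 and 3262, 2899 and 3929.8 with IRF4, a log2 difference in low IL-7 of -0.89 (SE 0.12, limma adjusted p = 0.000233). P4hb, the classical protein disulphide isomerase, fell by 0.83 and Pdia4 by 0.36. Of these falls that of Pdia4 was the smallest, and its call was lost under 5 of 24 alternatives. With the mean of its probe sets the log2 difference was -0.07 (limma adjusted p = 0.613), and its dimmer probe set was not called (0.22). The call was also lost without replicate 1 of high IL-7 (limma adjusted p = 0.0505) or replicate 1 of low IL-7 (0.0689), and with the stromal level as a covariate (0.0594). Fkbp11, a prolyl isomerase of secretory cells, was dim (means of 176 ± 9.25, 179 ± 29.3 and 178 ± 16.2, SD, n = 3) and not called on its brightest probe set. A dimmer probe set of Fkbp11 was called lower in low IL-7 (-0.87), so its direction depended on the probe set.

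The sensors in the list were not called. Ern1 had a log2 difference of 0.21 (limma adjusted p = 0.154) and Atf6 of 0.42 (limma adjusted p = 0.146). Atf6 read 1102, 972 and 604 on the low IL-7 arrays against 532, 725 and 681 in high IL-7, so the groups overlapped through 1 low IL-7 array. Without that array, replicate 3, Atf6 was called higher (log2 difference 0.68, limma adjusted p = 0.0138). Ern1 was called higher under 3 of 24 alternatives, among them without replicate 1 of low IL-7 (limma adjusted p = 0.0432).

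The degradation genes were called in both directions. ER-associated degradation extracts misfolded proteins from the ER and passes them to the proteasome. Of 7 such genes 3 rose and 1 fell, with a median of 0.12. Herpud1, which organises the degradation complex and is itself a UPR target, had the largest rise, reading 2902, 1939.5 and 2233 in high IL-7, 4069, 3722 and 3973 in low IL-7 and 2585, 2384 and 2809 with IRF4. The rise was 1.68-fold (log2 difference 0.75, SE 0.13, limma adjusted p = 0.00102), with no overlap between high and low IL-7.

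Edem1 and Edem2 encode relatives of ER mannosidases that mark glycoproteins for degradation, and they were called in opposite directions. Edem1 rose from 1132, 1059.7 and 1009 to 1537, 1342 and 1391 (log2 difference 0.41), and a dimmer probe set of it was not called (-0.34). Its call was lost with the mean of its probe sets (log2 difference 0.0325, limma adjusted p = 0.846) and without the 3 arrays of highest stromal signal (0.32, limma adjusted p = 0.174). Edem2 fell (log2 difference -0.44, limma adjusted p = 0.0454), a call lost under 11 of 24 alternatives, 7 of which left out 1 array (limma adjusted p from 0.051 to 0.139). Derl1, a rhomboid-like protein of the degradation channel, was called higher by 0.28, but 1 of its 3 dimmer probe sets was called lower (-0.60), and the call was lost when the replicate number was added as a block or when any of 6 arrays was left out (limma adjusted p from 0.0508 to 0.153). Its relative Derl2 (-0.22), which was called lower with array weights and without replicate 1 of low IL-7 or replicate 3 with IRF4, and the ubiquitin ligase pair Sel1l (-0.04) and Syvn1 (0.12, encoding HRD1) were not called.

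Of the 8 tested genes of the translocation channel and its partners, 5 fell and 2 rose, with a median of -0.25. The channel genes Sec61a1 (-0.43) and Sec61b (-0.27) fell modestly. The call of Sec61a1 was lost with the stromal marker level as a covariate (log2 difference -0.27, limma adjusted p = 0.106) and without the 3 arrays of highest stromal signal (limma adjusted p = 0.191), whereas Sec61b was called lower under all 24 alternatives. The translocon-associated protein genes Ssr2, Ssr3 and Ssr4 fell by 0.59, 0.23 and 0.56, while Ssr1 was not called (-0.14). The call of Ssr3 was lost when any of 4 arrays was left out (limma adjusted p from 0.0771 to 0.118) and with the stromal covariate (limma adjusted p = 0.116). Ssr2 read 1945, 1974 and 1910.3 in high IL-7, 1333, 1262 and 1273 in low IL-7 and 1753, 1774 and 1697 with IRF4. Its groups did not overlap between high and low IL-7 (limma adjusted p = 7.91e-05).

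Sec62 and Sec63 encode partners of the channel that serve post-translational transport and BiP recruitment, and they were the translocon genes that rose. Sec63 read 960, 908 and 757 in high IL-7, 1972, 1899 and 2053 in low IL-7 and 836, 941 and 949 with IRF4. This rise of 2.24-fold (log2 difference 1.17, SE 0.10, limma adjusted p = 1.13e-05) was the largest among the 37 genes. Its 5 probe sets disagreed, since 3 were called higher (1.17, 1.91 and 1.11), 1 was called lower (-0.37) and 1 was not called (-0.24). Sec62 rose by 0.29, a call lost under 6 of 24 alternatives. Among them were leaving out replicate 2 or 3 of high IL-7 or replicate 3 of low IL-7 (limma adjusted p from 0.0515 to 0.0756). The call was also lost with the stromal level as a covariate (log2 difference 0.23, limma adjusted p = 0.12) and without the 3 arrays of highest stromal signal (log2 difference 0.16).

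The signal peptidase genes encode subunits of the enzyme that cuts signal peptides at the channel. Spcs2 fell most, from 5201, 5205 and 5197 in high IL-7 to 3401, 2995 and 2998 in low IL-7, and read 5611, 4844 and 4593 with IRF4 (log2 difference in low IL-7 -0.73, limma adjusted p = 5.12e-05). The 3 high IL-7 arrays were nearly equal (5201 ± 4.03, SD, n = 3). Spcs3 fell by 0.42, a call lost under 13 of 24 alternatives, 6 of which left out 1 array (limma adjusted p from 0.059 to 0.168), and Spcs1 was not called (-0.15), although 5 of 24 alternatives called it lower, among them leaving out replicate 1 of high IL-7 (limma adjusted p = 0.0233).

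Where a gene had several probe sets, they did not always move alike. Several probe sets passed the filter for 25 genes, of which 6 had every one called the same way in low IL-7: Calr, Canx, Herpud1, Hsp90b1, Spcs2 and Txndc5. In 8 genes some probe sets were called with the brightest and others were not called, in 2 (Derl1 and Sec63) probe sets were called in opposite directions, in 4 only a dimmer one was called and in 5 none was. For Hspa5, the brightest 2 of its 3 probe sets were called lower and the dimmest was not (0.10).

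The promoter element and the calls were set side by side only as a description. Of the 8 genes with an ER stress element, 6 were called lower and 0 higher in low IL-7. Of the 22 tested genes with a window and no match, 11 were lower and 5 higher. Among all 10362 tested genes with a window, 16 held the element, of which 8 were lower and 2 higher. The 8 of these 16 outside the list of 38 held 2 lower (Adcy3 and Alg12) and 2 higher, Derl3 (0.34) and Ero1b (0.94), which encode a degradation factor and an ER oxidase.

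The regulators of the UPR were measured beside their targets. Xbp1 read 5185, 5205 and 5705 in high IL-7, 2195, 2148 and 2139.7 in low IL-7 and 4768, 3780.1 and 4294 with IRF4. It fell 2.47-fold in low IL-7 (log2 difference -1.30, SE 0.084, limma adjusted p = 1.76e-06), with no overlap. The arrays measure its total transcript, not its splicing, which makes the active factor. Atf4, the factor translated when PERK is active, read 6084, 4895 and 5097 in high IL-7 and 2556, 2477 and 2273 in low IL-7. With IRF4 it read 5634, 4316 and 4349. Its log2 difference in low IL-7 was -1.13 (limma adjusted p = 2.91e-05). Another Atf4 probe set of similar brightness (mean 3788 against 4187) fell less (-0.49, limma adjusted p = 0.0148). The dimmest Atf4 probe set was not called (-0.03), so the size of the fall depended on the probe set.

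Ddit3, which encodes the stress factor CHOP downstream of ATF4, did not move with Atf4. It read 291, 277 and 256 in high IL-7 and 342, 285 and 324 in low IL-7 and was not called (log2 difference 0.19, limma adjusted p = 0.257). Bhlha15, encoding the secretory cell factor MIST1, fell most of the regulators (log2 difference -1.86, SE 0.14, limma adjusted p = 4.63e-06). Its mean went from 8.53 to 6.67 on the log2(intensity + 16) scale. The gene was dim, at 290 to 437 in high IL-7 and 83.7 to 86.8 in low IL-7. Its low IL-7 values lay below the filter on mean intensity (108). Of the 22 UPR sensors, factors and effectors outside the 38 genes, 10 fell (45.5%, against 19.6% of all genes) and 3 rose (13.6%, against 17.8%) in low IL-7. The rises included Eif2ak3, the gene of PERK (0.57).

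Other ER gene lists gave a mixed picture in low IL-7. Over all genes tested, 19.6% fell and 17.8% rose. The oligosaccharyltransferase and N-glycan genes, which build and attach the sugars that the lectin chaperones read, moved one way among their calls. In limma 16 of 22 fell (72.7%) and 0 rose, with a median of -0.57, and at an unadjusted p under 0.05 17 fell and 0 rose. The largest falls among them were in Mogs, the glucosidase that makes the first cut of the glycan (-1.18, limma adjusted p = 2.44e-06), and Alg5, a dolichol glucosyltransferase (-1.08). Of 23 oxidoreductase and calcium genes 9 fell (39.1%) and 3 rose (13%), with Rcn1, a calcium-binding luminal protein, at -1.11 and the calcium channel gene Itpr2 at 1.13.

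Of 7 genes of the signal recognition particle and its receptor 3 fell (42.9%) and 1 rose (14.3%), with Srprb at -0.61 and Srp14 at 0.66. Of 19 further degradation genes 6 fell (31.6%) and 3 rose (15.8%), with a median of -0.06. They were led by a fall in Rad23b, a shuttle to the proteasome (-0.50), and a rise in the ubiquitin-conjugating enzyme gene Ube2j1 (0.87). Of 36 genes of transport between ER and Golgi 8 fell (22.2%, against 19.6% of all genes) and 3 rose (8.33%, against 17.8%). Their largest falls were in the coat gene Sec31a (-0.75) and the cargo receptor gene Lman1 (-0.71). Of 19 genes of tail-anchored insertion and other translocon partners 7 fell (36.8%) and 5 rose (26.3%), with the insertase subunit gene Emc4 at -0.86 and the insertion receptor gene Get1 at -0.67.

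The second comparison asks what IRF4 did in high IL-7. None of the 37 genes was called, beside 1.89% of all genes higher, 0.951% lower and 2.85% either way in limma. The median log2 difference of the 37 genes was -0.01, and so was that of all genes. At an unadjusted p under 0.05 there were 3 genes (8.11%, against 15.1% of all genes): Hspa5, Ssr2 and Spcs1. The arrays of these groups did not overlap for 6 of the 37 genes (16.2%), against 21% of all genes. With array weights, an alternative that gives noisier arrays less influence, limma called 2 of the 37 higher and 5 lower. The same fit called 1613 of all genes higher and 1711 lower. Under each of the other alternatives limma called none of the 37.

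The intervals bound what could have been missed. The lowest adjusted p was that of Hspa5 (0.109 in limma), whose 3 arrays with IRF4 lay just below the 3 of high IL-7, at a log2 difference of -0.14 (95% interval -0.23 to -0.05). The largest difference in size was that of Sec61a1 (-0.20, 95% interval -0.45 to 0.05). Of the 37 intervals, 35 lay within 0.5 of 0 on the log2 scale and all 37 within 1. The exceptions were Atf6, whose interval reached -0.54, and Syvn1, whose interval reached 0.71. Sdf2l1 (0.01, 95% interval -0.25 to 0.26) and Txndc5 (-0.10, -0.37 to 0.17), the genes with the largest falls in low IL-7, had intervals around 0 here. An adjusted p above the threshold does not show equal levels.

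**Figure D4:**
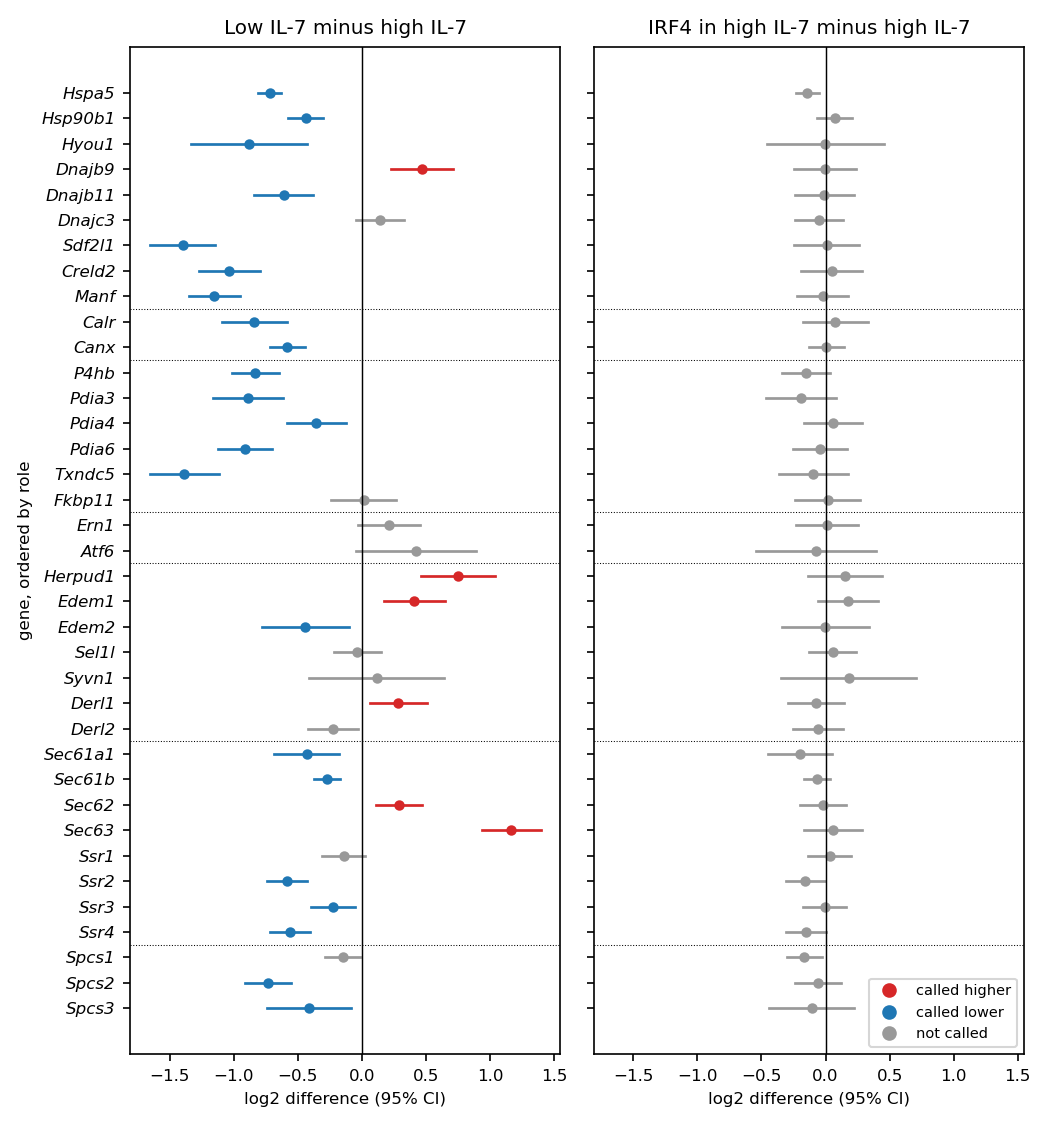
Log2 difference of each of the 37 genes with its 95% interval, for low IL-7 minus high IL-7 (left) and IRF4 in high IL-7 minus high IL-7 (right), which share the 3 high IL-7 arrays. Blue marks the 22 genes called lower and red the 6 called higher on the left, and all 37 are grey on the right.

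Among the other ER genes a few were called with IRF4 in high IL-7, all of them higher. They were 1 of 22 UPR sensors, factors and effectors (4.55%) and 2 of 23 oxidoreductase and calcium genes (8.7%). A further 2 were among 19 genes of tail-anchored insertion and other translocon partners (10.5%), and 0 in the other lists. Of all genes tested, 1.89% were called higher and 0.951% lower, and the difference in shares was not tested. Eif2ak3 was higher by 0.55 (limma adjusted p = 0.0145). Erp29, a luminal thioredoxin-fold protein, was higher by 0.69 (limma adjusted p = 0.0254). Ero1b was higher by 0.57 (limma adjusted p = 0.0184). Smaller rises were called in Sec11c, a catalytic signal peptidase subunit (0.40), and Tram1, a translocon partner (0.28). Xbp1 was lower on all 3 arrays with IRF4 than on those of high IL-7 but was not called (log2 difference -0.33, limma adjusted p = 0.0738). Atf4 (-0.17) and Ddit3 (-0.21) were not called.

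The third comparison sets IRF4 in high IL-7 against low IL-7. It shares its low IL-7 arrays with the first comparison, so its counts are no separate evidence. The groups compared differ in both IL-7 and IRF4, so a difference between them cannot be assigned to either. Of the 37 genes, 20 were higher with IRF4 (54.1%, against 18.6% of all genes), 5 were lower (13.5%, against 17.7%) and 12 were not called, while 36.4% of all genes were called either way. The median log2 difference was 0.31, beside 0.00 over all genes.

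The 17 folding genes had 14 higher and 1 lower, with a median of 0.68. Sdf2l1 was 2.65-fold higher with IRF4 in high IL-7 than in low IL-7 (log2 difference 1.41, SE 0.11, limma adjusted p = 9.3e-06). Txndc5 was higher by 1.29, Manf by 1.13 and Creld2 by 1.08. Calr (0.92), Hyou1 (0.88) and Pdia6 (0.87) followed, and the dimmer Hyou1 probe set was not called (0.02). The 5 lower genes were Sec63 (-1.11), Herpud1 (-0.60), Dnajb9 (-0.47), Derl1 (-0.36) and Sec62 (-0.31). For Sec63 and Derl1 a dimmer probe set was called higher (0.36 and 0.47). The calls of Derl1, Edem2, Sec62 and Ssr3 were each lost when 1 array or another was left out, at limma adjusted p values up to 0.152. Of the N-glycan genes 15 of 22 were higher (68.2%, against 18.6% of all genes) and 0 lower in limma, the same counts as at an unadjusted p under 0.05. Among them Rpn2, an oligosaccharyltransferase subunit, was 2.01-fold higher. Xbp1 was higher by 0.97 and Atf4 by 0.95, and Ddit3 was lower by 0.40 (limma adjusted p = 0.0267). The other Atf4 probe sets were not called here (0.35 and -0.07).

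Markers of other cells were read on the same arrays. The mean log2 level of the 16 stromal markers above the filter was 8.79, 10.81 and 10.10 in high IL-7, 7.89, 8.94 and 8.66 in low IL-7 and 10.22, 8.12 and 8.47 with IRF4. Dcn, Lum and Postn, 3 defining markers, were below the filter. The summed stromal intensity ranged from 8980 to 39668 in high IL-7, from 5083 to 11498 in low IL-7 and from 5177 to 26947 with IRF4, and 5 of the 16 markers were called lower in low IL-7. Replicate 1 of high IL-7 and replicates 2 and 3 with IRF4 had stromal levels within the low IL-7 range. Their median folding gene lay at 0.06, -0.05 and 0.08 from the high IL-7 mean, against -0.72, -0.87 and -0.83 on the low IL-7 arrays. Without the 3 arrays of highest stromal signal (replicates 2 and 3 of high IL-7 and replicate 1 with IRF4) 3 of the 37 genes were called higher in low IL-7, in place of 6, and 18 lower, in place of 22. In that fit high IL-7 is replicate 1 alone, which is among the 2 arrays of lowest 18S signal, and its spread is assumed to be that of the other groups. With the stromal level as a covariate and all 9 arrays kept, 4 were called higher and 18 lower.

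**Figure D5:**
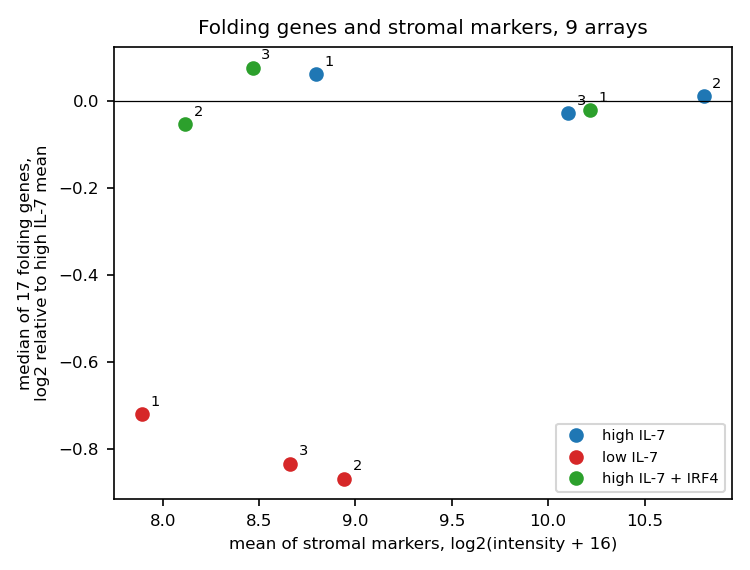
Each of the 9 arrays by its mean stromal marker level (x axis, log2(intensity + 16)) and the median of the 17 folding genes relative to the high IL-7 mean (y axis, log2), with replicate numbers beside the points. The 3 low IL-7 arrays lie between -0.72 and -0.87, and the other 6 lie near 0 at stromal levels from 8.12 to 10.81.

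Plasma cells express folding genes highly, and 5 of 8 plasma cell markers stood above the filter. In low IL-7, 2 of the 5 were called higher and 1, Xbp1 itself, was called lower. Prdm1, the plasma cell regulator known as BLIMP1, read 551, 797 and 669 in low IL-7 against 73.4, 88.7 and 72.6 in high IL-7. On those arrays Xbp1 and most folding genes were lower, and bulk RNA does not tell whether the same cells carried these transcripts. The Prdm1 values in high IL-7 lay below the filter on mean intensity. Myeloid markers were dim or mixed (8 of 12 above the filter, 2 called higher and 1 lower in low IL-7), and of 10 T cell markers 3 were above the filter and 0 were called. The 18S control probe set was lowest in replicate 1 of high IL-7 (6.53 on the log2 scale) and replicate 3 with IRF4 (6.41), beside 7.70 to 8.49 on the other arrays. The part of these signals in the results was not tested.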

How the data were processed

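Total RNA of 9 samples was hybridised to Affymetrix arrays, per the labels' protocols. The authors deposited a table of linear intensity values for 45101 probe sets, between 0 and 24761.9; how they were summarised and scaled was not given in the sources used here, and without detection calls the level of background is unknown. Of the probe sets, 34945 had 1 gene symbol, 932 several and 9160 none, besides 64 controls. Older symbols in the lists were matched through RefSeq synonyms (GRCm38.p6).

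Values were taken as log2(intensity + 16), so that folds of dim genes are understated. Probe sets with a mean over all arrays at or above the 40th percentile (108) were kept, and the brightest stood for its gene. limma 3.58.1 in R 4.3.3 fitted group means over all 9 arrays, with eBayes and a trend, and p-values were adjusted over all 12828 genes of a comparison. Figures used matplotlib 3.10.9. No column was left unused, and at most 2 values were identical between replicates.

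The genes and lists were chosen with earlier results of these data known, as were their roles. Named genes were all 38 by role, in full the up to 8 called genes with the largest difference in each comparison, of each other ER list up to 2 called genes per comparison, and Xbp1, Atf4 and Ddit3; Derl3, Adcy3, Alg12, Prdm1, Rag1 and Vpreb1 were added after their values were seen. Protein sequences were not analysed here. Promoters of Manf, Hyou1, Derl1, Atf6, Sec61a1, Ssr2 and Spcs3 were not analysed here.

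Same-numbered arrays of high and low IL-7 deviated together from their group means (r from 0.286 to 0.549 over genes), and those of the other pairs of groups did not (-0.38 to -0.013). Differently numbered arrays of different groups ranged from -0.52 to 0.399, and 5 of 9 arrays correlated best with their own number. Whether the numbers pair high with low IL-7 is thus uncertain. The main fit took no account of a pairing, and the block was run as an alternative, as planned. The method was tested on simulated data: of 200 genes changed among 12828, a log2 change of 1 was recovered in 98.5% for low against high IL-7, and a change of 0.5 in 53.7%, with 10 false calls of 178.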

Additional observations from a re-analysis of the deposited data

How the results depend on the processing

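Each count and difference was recomputed under 24 alternatives: another pseudocount, filter, normalization or probe set rule, no variance trend, only the 6 arrays compared, array weights, a stromal covariate, a replicate block, each array left out, and 3 added after seeing the data. Of the 28 calls in low against high IL-7, 19 held under all 24 (2 higher, Herpud1 and Sec63, and 17 lower); of the 25 calls of IRF4 against low IL-7, 19 held. The cause of each change below was not tested. With the mean of a gene's probe sets, Derl1 reversed to -0.14 in low against high IL-7 and to 0.0586 in IRF4 against low IL-7, and Fkbp11 reversed to -0.43. Array weights called 4147 genes higher and 4176 lower in low IL-7, 1613 higher and 1711 lower for IRF4 against high IL-7 (2 and 5 of the 37), and 4089 higher and 3720 lower for IRF4 against low IL-7 (8 of the 37 lower). Without the 3 arrays of highest stromal signal 3 of the 37 were higher in low IL-7 and 235 genes were lower with IRF4 in high IL-7; without the 2 arrays of lowest 18S signal 65 were lower there, and with only the 6 arrays compared 55. Leaving out 1 array gave 141 to 270 genes higher and 52 to 335 lower for IRF4 against high IL-7, with 0 of the 37 called each time, and 19 to 22 of the 37 lower and 4 to 6 higher in low IL-7. The lowest of these counts came without replicate 3 of high IL-7 (141 higher) and replicate 2 with IRF4 (52 lower), and the highest count of falls, 335, without replicate 1 with IRF4. With the replicate number as a block, 22 of the 37 were lower and 5 higher in low IL-7, since Derl1 lost its call (the block changed no other call among the 37), 0 were called for IRF4 against high IL-7, and 20 were higher and 5 lower for IRF4 against low IL-7. The block in fits of only 6 arrays called 116 genes higher and 41 lower for IRF4 against high IL-7, and 22 of the 37 lower and 7 higher in low IL-7, with Ern1 added. Quantile normalization and a median shift moved the median of all genes by at most 0.0648. Only 3 arrays a group limit the precision, and signal over background is not known.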
